A study of Mus musculus with 15 samples.

Results

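Ribosome biogenesis genes, which encode the nucleolar factors that make and assemble ribosomal RNA, were examined together with Myc, a transcription factor known for driving their expression in growing cells. The set held 43 of the 27677 genes named on the array: Myc itself, nucleolin and 2 nucleophosmins, 4 components of the small nucleolar ribonucleoproteins (snoRNPs) that modify ribosomal RNA, 7 subunits or factors of RNA polymerase I, 15 assembly factors of the small ribosomal subunit and 13 of the large subunit. Members were chosen by name, as genes of this pathway, and each was read from the probe with the highest mean signal. All 43 were on the array (8 of them under an older symbol), all passed the filter on dim probes, and all were well above background and unsaturated on all 15 arrays.

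Uterine RNA of ovariectomized mice was measured on one-color Agilent arrays after an injection of the strong estrogen estradiol (E2) or the weak estrogen estriol (E3), which carries an additional hydroxyl group on the D ring. The mice were adults of at least 10 weeks, rested 10 to 14 days after ovariectomy, and received 250 ng of hormone, or none, in 100 ul of saline into the peritoneum. The 5 groups of 3 arrays were C57bl6/J mice 24 hr after saline, C57bl6/J mice 2 hr or 24 hr after E3, C57bl6/J mice 24 hr after E2, and C57bl6/Jx129 mice 2 hr after E2. For this last group alone the labels give the genotype of the estrogen receptor gene Esr1, as wild type. The saline group served as control for both times, since no saline samples at 2 hr were analysed here, so the 4 comparisons against saline share their controls. The E2 2 hr arrays also came from another scanner, scan day and slides than the other 12, so strain, scanner and treatment cannot be told apart in any comparison that uses them. The labels describe uteri handled singly whereas the methods also speak of pooled tissue, so p-values measure the spread between these samples.

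A ribosome begins in the nucleolus, where RNA polymerase I copies the ribosomal DNA into a long precursor. The precursor is modified by snoRNPs, cut by nucleases and folded around ribosomal proteins by many assembly factors, which then leave the small and the large subunit. Myc binds, with its partner Max, the sequence CACGTG (an E-box) near the start of many of these genes, and growth of uterine cells after estrogen is known to begin with a rise of RNA and protein synthesis before DNA synthesis.

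RefSeq promoter windows (build GRCm38.p6, from 250 bases before to 50 bases after each transcript start) were at hand for 35 of the 43 genes. CACGTG, which reads alike on both strands, was in the windows of 8 of the 35 (22.9%), against 8.91% of all 17492 protein-coding genes with a window. Counting the part before the start alone, 3 of the 35 (8.57%) held it, against 7.61% of all genes, so that 5 of the 8 carried it within the first 50 transcribed bases. The stretches around it are shown because Myc and Max are known to bind this sequence. The motif is in capitals and each stretch is read on the gene's own strand. The genes with the motif before the start were Rrn3 (2 copies), Imp4 and Nol1 (now named Nop2).
Rrn3, plus strand, chr16:13780454-13780519: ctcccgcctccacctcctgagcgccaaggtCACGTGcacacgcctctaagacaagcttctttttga
Rrn3, plus strand, chr16:13780621-13780686: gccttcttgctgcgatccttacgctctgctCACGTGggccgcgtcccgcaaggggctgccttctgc
Imp4, plus strand, chr1:34439678-34439743: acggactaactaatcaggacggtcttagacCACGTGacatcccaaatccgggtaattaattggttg
Nol1, plus strand, chr6:125131793-125131858: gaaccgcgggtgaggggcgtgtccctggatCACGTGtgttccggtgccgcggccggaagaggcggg
The other 5 had it shortly after the start, at most 37 bases into the transcript.
Pes1, plus strand, chr11:3963965-3963994: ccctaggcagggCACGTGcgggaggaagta
Wdr43, plus strand, chr17:71616220-71616249: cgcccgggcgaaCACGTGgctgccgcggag
Tsr1, plus strand, chr11:74898092-74898121: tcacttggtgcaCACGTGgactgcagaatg
Ltv1, minus strand, chr10:13193092-13193121: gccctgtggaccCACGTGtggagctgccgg
Pno1, minus strand, chr11:17211540-17211564: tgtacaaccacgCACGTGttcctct
After E2 at 2 hr the 8 genes had log2 fold changes from 0.39 to 1.93 (median 1.11, 5 called higher), and the 27 without the motif in their window from -0.22 to 2.32 (median 0.58, 11 called). After E3 at 2 hr the 8 spanned 0.59 to 1.41 (median 1.08, 5 called) and the 27 spanned -0.20 to 1.95 (median 0.63, 9 called). At 24 hr the order of the medians was the other way, 0.39 with the motif (1 called) and 0.64 without (6 called) after E2, and -0.23 and -0.051 after E3 (none called). Over all probes 10.6%, 4.68%, 6.93% and 1.85% were called higher in these 4 comparisons, so that the 1 of 8 after E2 at 24 hr was near the background. The ranges overlapped each time, and these values are a description without a test. A match of 6 letters is a description of the sequence and does not show that Myc binds there.

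Before scaling, the 75th percentile of signal ran from 2989 to 4412 over the 15 arrays, and 77.8% to 81.8% of spots were well above background, so no array was markedly dimmer than the rest. All 6 uterine identity markers were well above background on every array, and their sum was 36.0 to 41.2 times the 75th percentile on saline, 30.8 to 33.4 after E2 and 17.1 to 21.3 after E3 at 2 hr, and 24.5 to 35.7 at 24 hr. Other tissue was present on some: the 11 liver markers summed to 7.25 to 27.0 times the 75th percentile on the saline arrays, 1.87 to 4.53 after E3 at 2 hr and at most 0.77 on the other 9 arrays, and the 9 exocrine pancreas markers reached 655 on array 2 of E3 at 2 hr and 302 on array 2 of E2 at 24 hr, against at most 12.8 elsewhere. Fat markers summed to 17.4 to 89.6 on saline, 12.3 to 19.2 after E2 at 24 hr and 12.9 to 66.2 after E3 at 24 hr, and skeletal muscle markers to 3.56 to 3.91, 8.22 to 11.1 and 5.54 to 8.37 in these groups. Lymph node and immune cell markers summed to 50.4 to 71.6 after E2 and 66.2 to 127 after E3 at 2 hr, against 50.6 to 107 on saline. The part of these tissues and of the lower identity markers in the results was not tested. With both high pancreas arrays left out, 19 genes were called for E2 and 15 for E3 at 2 hr, 10 for E2 and none for E3 at 24 hr, and 12 for E3 against E2 at 24 hr. The shares of all probes called in that fit are not given, so these counts cannot be set against its background. In whole tissue, fewer cells of a type and less RNA per cell cannot be told apart.

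At 2 hr with either estrogen and at 24 hr with E2 most of the 43 genes were higher than in saline, fewer of them by 2-fold at 24 hr, and none was called at 24 hr with E3. Levels are log2 signal relative to the array's 75th percentile, and a gene was called when limma's moderated test gave p under 0.001 and the change was at least 2-fold. After E2 at 2 hr, 19 of 43 genes were called higher and none lower, where 10.6% of all tested probes were called higher and 21.2% in either direction. After E3 at 2 hr, 16 were called higher and none lower (4.68% of probes higher, 9.11% lower, 13.8% either way). After E2 at 24 hr, 10 were called higher and none lower (6.93% higher, 18.1% either way). After E3 at 24 hr, limma called none of the 43 in either direction (3.81% of probes either way), while at an unadjusted p under 0.05 3 were higher and 18 lower (20.3% and 24.1% of all probes). The median log2 fold change over the 43 was 0.85, 0.78, 0.56 and -0.09 in that order, beside -0.083, -0.11, -0.063 and -0.0091 over all tested probes.

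More of the 43 genes stood apart from saline than were called. At an adjusted p under 0.05, 34 were higher and none lower after E2 at 2 hr, where 29.2% of probes were higher and 32.8% lower. After E3 at 2 hr 36 were higher and 1 lower (18.7% and 30.9% of probes), and after E2 at 24 hr again 36 and 1 (27.3% and 34.1%). Counted by arrays that did not overlap saline, 36 were higher and 1 lower after E2 at 2 hr (31.1% and 36% of probes), 35 and 1 after E3 at 2 hr (22% and 36%), and 35 and 1 after E2 at 24 hr (30.4% and 38.4%). After E3 at 24 hr the side turned, with 3 genes higher and 20 lower without overlap (23.2% and 28.2%).

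**Figure D1:**
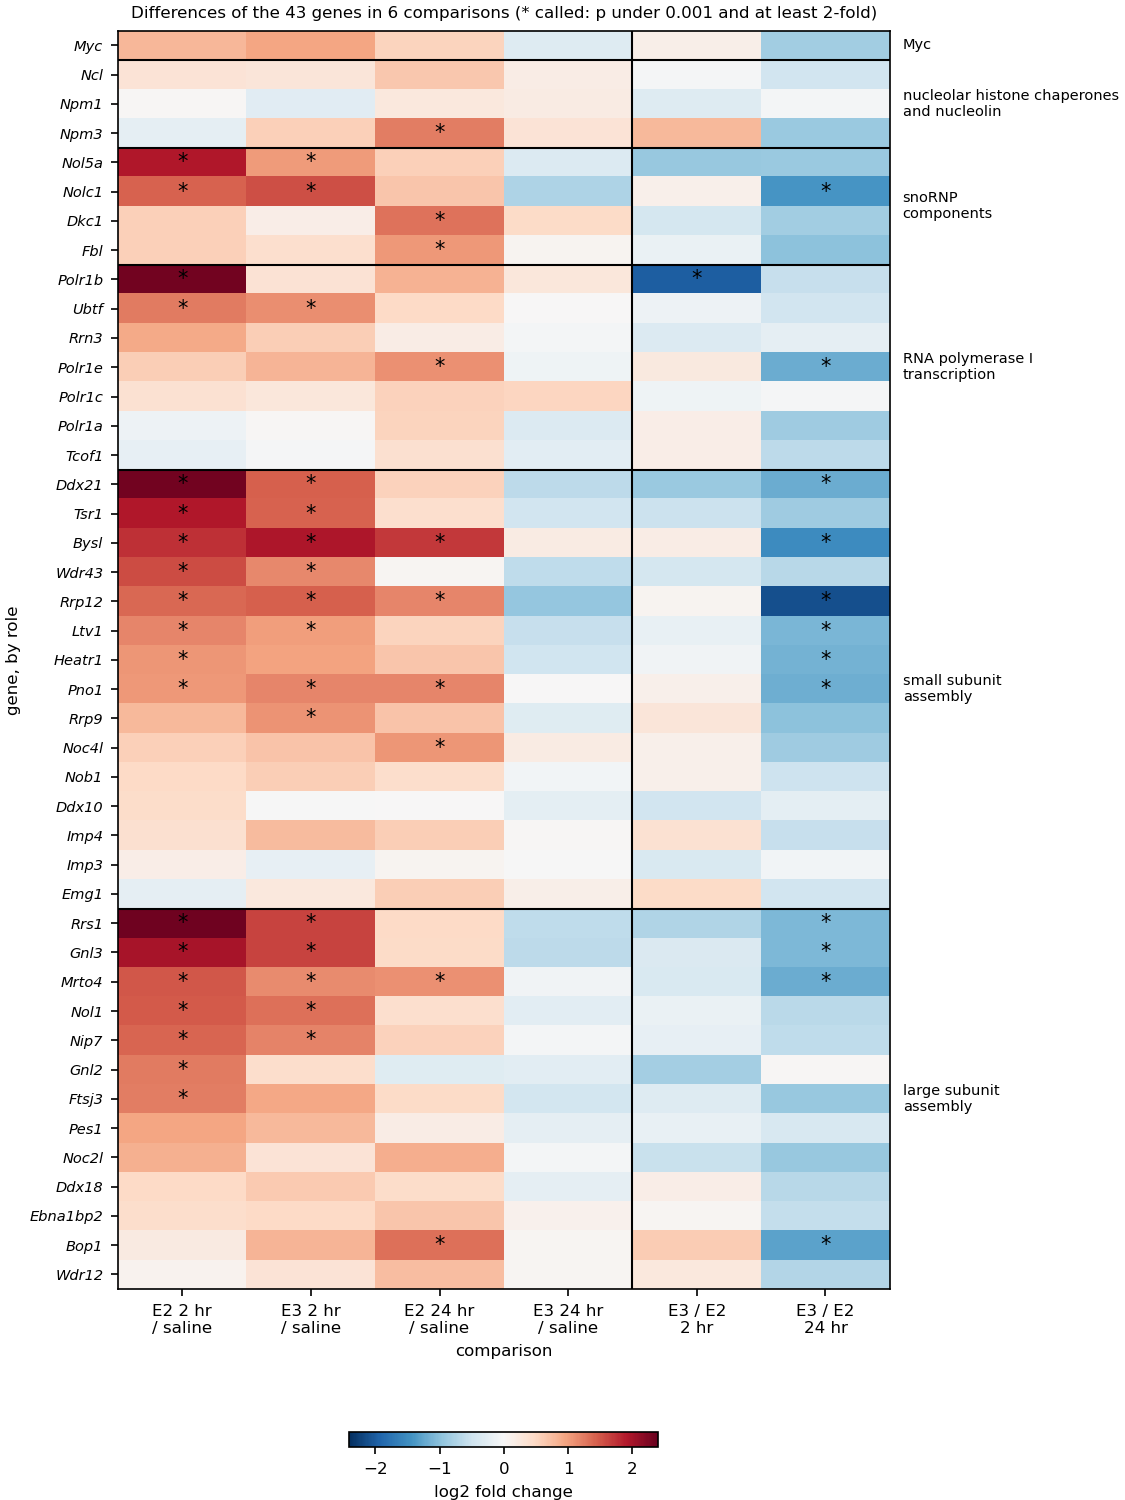
Log2 fold change (color, blue lower and red higher) of the 43 genes (rows, grouped by role) in the 4 comparisons against saline and the 2 of E3 against E2 (columns), each from 3 arrays a group; asterisks mark called genes. Called genes number 19, 16, 10 and 0 in the comparisons against saline, and 1 and 12 in those of E3 against E2.

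Myc was higher than in saline at 2 hr with both hormones and at 24 hr with E2, by less than 2-fold each time, and its lower level at 24 hr with E3 did not pass an adjusted p of 0.05. Its probe lies on chromosome 15 (build mm7, from the file header, 62064256 to 62064316). Myc read 1.84, 1.57 and 1.71 on the saline arrays, 2.79, 2.51 and 2.21 after E2 and 2.79, 2.59 and 2.56 after E3 at 2 hr, and 2.18, 2.27 and 2.25 after E2 and 1.45, 1.43 and 1.30 after E3 at 24 hr. All 9 arrays after E2 at either time or E3 at 2 hr were above every saline array, and the 3 arrays of E3 at 24 hr were below every saline array. The log2 fold changes were 0.80 (SE 0.13, adjusted p = 0.000203) for E2 at 2 hr and 0.94 (SE 0.13, adjusted p = 8.76e-05) for E3 at 2 hr, 0.53 (adjusted p = 0.00409) for E2 at 24 hr, and -0.32 (adjusted p = 0.0839) for E3 at 24 hr. None reached 2-fold on this probe, so Myc was not called against saline. Its other 2 probes gave 0.62 and 0.78, 1.03 and 1.07, 0.57 and 0.53, and -0.26 and -0.29 in these comparisons, and both were called after E3 at 2 hr.

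**Figure D2:**
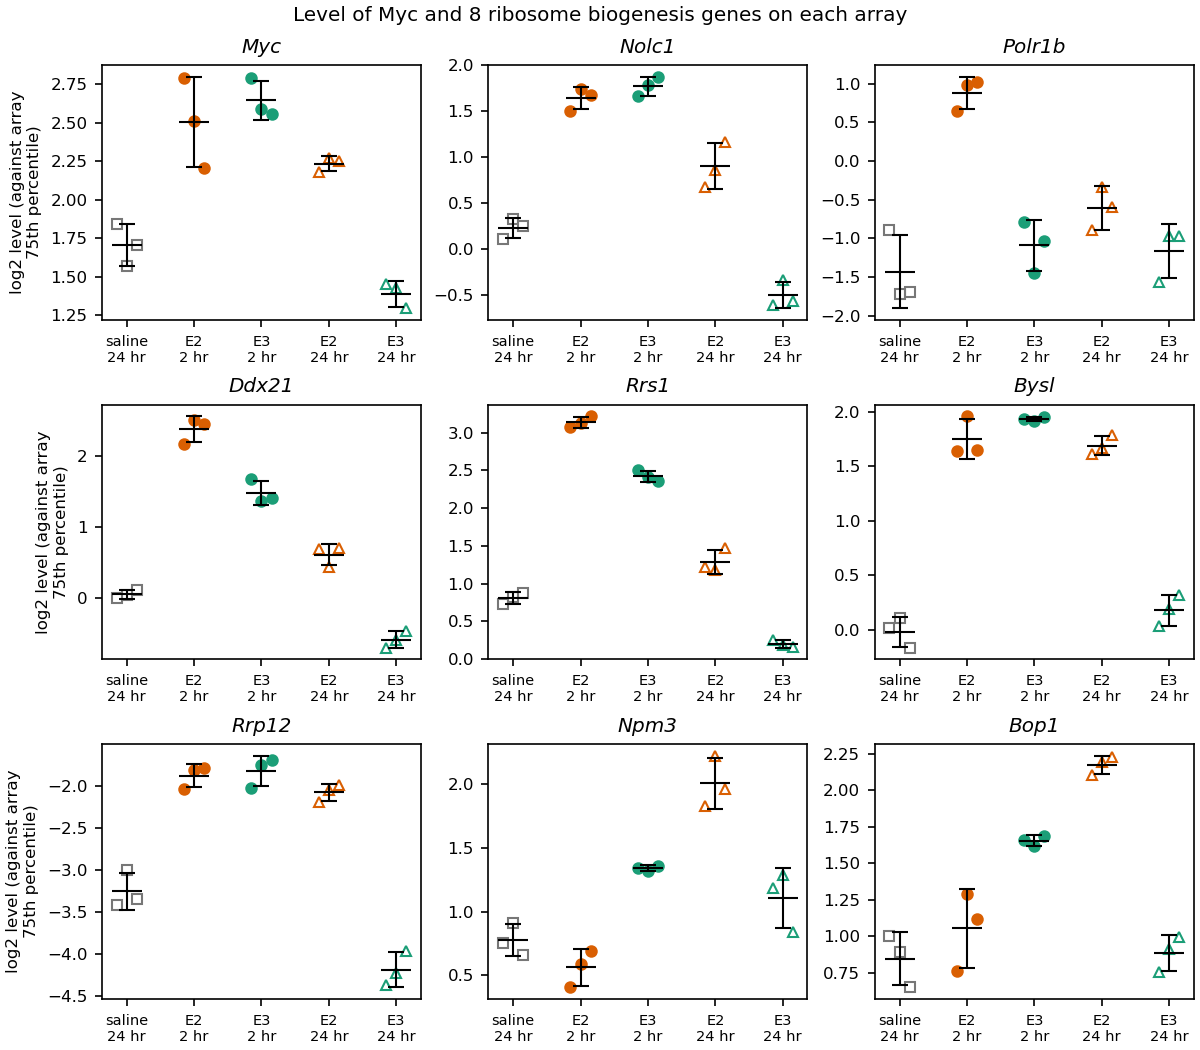
Log2 level against the array's 75th percentile (y axis, a separate scale for each gene) of Myc and 8 other genes on the 15 arrays (x axis, 5 groups of 3); points are arrays, filled at 2 hr and open at 24 hr, bars are mean and SD. Rrs1 and Ddx21 peak at 2 hr, Bysl and Rrp12 stay high at 24 hr with E2 and not with E3, and Npm3 and Bop1 are highest at 24 hr with E2.

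Of the 3 nucleolar chaperones, 1 was called, Npm3 after E2 at 24 hr. Nucleolin (Ncl), which binds ribosomal DNA chromatin and precursor RNA, had log2 fold changes of 0.33 and 0.29 at 2 hr and 0.64 for E2 at 24 hr, none of them 2-fold. Nucleophosmin (Npm1), an abundant chaperone of histones and ribosomal proteins, read 5.48, 5.38 and 5.13 on the saline arrays, 5.28, 5.44 and 5.38 after E2 and 5.10, 4.91 and 5.14 after E3 at 2 hr, and 5.77, 5.33 and 5.65 after E2 and 5.66, 5.49 and 5.43 after E3 at 24 hr. Each hormone group overlapped saline, and no difference from saline passed (lowest adjusted p = 0.089, for E3 at 2 hr). Npm3, a smaller relative of Npm1, read 0.76, 0.91 and 0.66 on the saline arrays, 0.41, 0.59 and 0.69 after E2 and 1.34, 1.32 and 1.36 after E3 at 2 hr, and 1.83, 2.22 and 1.96 after E2 and 1.19, 1.29 and 0.84 after E3 at 24 hr. Npm3 was thus at or below the saline level after E2 at 2 hr (-0.21) and highest after E2 at 24 hr (1.23, SE 0.13, adjusted p = 8.98e-06, called). After E3 it was 0.56 at 2 hr and 0.33 at 24 hr.

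Among the snoRNP components, 2 of 4 were called higher at 2 hr with each hormone and the other 2 at 24 hr with E2, where 10.6%, 4.68% and 6.93% of all probes were. With quantile normalization the count was 1 for E3 at 2 hr and 1 for E2 at 24 hr. Nolc1, a chaperone of snoRNPs, read 0.11, 0.32 and 0.25 on the saline arrays, 1.51, 1.75 and 1.68 after E2 and 1.67, 1.78 and 1.87 after E3 at 2 hr, and 0.67, 0.87 and 1.17 after E2 and -0.61, -0.34 and -0.57 after E3 at 24 hr. It was called after both hormones at 2 hr (1.42 and 1.55), and at 24 hr all 3 E2 arrays were above the saline arrays and all 3 E3 arrays below them (0.67 and -0.73). Nol5a (now Nop56), a core protein of the box C/D snoRNPs that guide methylation, followed it at 2 hr with 1.93 after E2 and 1.02 after E3, both called. Fibrillarin (Fbl), the methyltransferase of the same particles, read 4.94, 4.76 and 4.78 on the saline arrays, 5.35, 5.41 and 5.42 after E2 and 5.19, 5.32 and 5.18 after E3 at 2 hr, and 5.89, 5.92 and 5.79 after E2 and 4.82, 4.96 and 4.87 after E3 at 24 hr. Its arrays at 2 hr were above every saline array with both hormones (0.57 and 0.40), every array of E2 at 24 hr was above all others, and the change from saline of 1.04 was called (adjusted p = 7.27e-07), whereas after E3 at 24 hr the difference was 0.059 with overlapping groups. Dkc1, the pseudouridine synthase of the box H/ACA particles, read -1.73, -2.38 and -1.74 on the saline arrays, -1.36, -1.49 and -1.27 after E2 and -1.69, -2.49 and -1.19 after E3 at 2 hr, and -0.75, -0.76 and -0.47 after E2 and -1.42, -1.46 and -1.62 after E3 at 24 hr. It was called after E2 at 24 hr (1.30, SE 0.27), with a wide spread between arrays and 0.45 (adjusted p = 0.213) for E3 at that time.

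Of 7 subunits and factors of RNA polymerase I, 2 were called higher after E2 at 2 hr, 1 after E3 at 2 hr and 1 after E2 at 24 hr, where 10.6%, 4.68% and 6.93% of all probes were. Ubtf, the factor that opens ribosomal DNA for transcription, was called at 2 hr with both hormones (1.25 and 1.12). Rrn3, which joins the polymerase to the promoter and is the member with 2 E-boxes before its start, differed from saline by 0.92 and 0.59 at 2 hr (adjusted p = 1.30e-05 and 0.000638) and by 0.17 and -0.05 at 24 hr. Polr1b, the second largest subunit, read -0.89, -1.72 and -1.70 on the saline arrays, 0.65, 0.98 and 1.02 after E2 and -0.79, -1.45 and -1.03 after E3 at 2 hr, and -0.89, -0.33 and -0.60 after E2 and -1.57, -0.97 and -0.97 after E3 at 24 hr. On this probe, the brighter of 2 for Polr1b, all 3 arrays of E2 at 2 hr stood above the 12 others, at a log2 fold change of 2.32 (adjusted p = 8.39e-06). The E3 arrays at the same time overlapped saline (0.34, adjusted p = 0.3). Polr1e, a smaller subunit, was called after E2 at 24 hr (1.10) and lay at -0.10 for E3. Polr1c, a subunit shared with RNA polymerase III, read 3.41, 3.30 and 3.30 on the saline arrays, 3.63, 3.74 and 3.71 after E2 and 3.66, 3.71 and 3.43 after E3 at 2 hr, and 3.93, 3.96 and 3.79 after E2 and 3.87, 3.92 and 3.79 after E3 at 24 hr. This was the gene with the highest change after E3 at 24 hr (0.52, adjusted p = 0.000968), with E2 at 0.56, and the only one of the 43 higher than saline after E3 at 24 hr at an adjusted p under 0.05 (15.6% of all probes), while 13 were lower (18.5%). On its brightest probe Polr1a, the largest subunit, was at -0.13 and 0.035 at 2 hr and parted at 24 hr, with 0.53 after E2 and -0.33 after E3. Its other probe was higher than saline after E2 at 2 hr, as given below, so this course is not settled. Tcof1, known as treacle, which helps Ubtf on ribosomal DNA, read 1.71, 1.93 and 1.69 on the saline arrays, 1.36, 1.77 and 1.62 after E2 and 1.51, 1.79 and 1.95 after E3 at 2 hr, and 1.87, 2.27 and 2.34 after E2 and 1.55, 1.63 and 1.39 after E3 at 24 hr. Its differences ran from -0.25 to 0.39 in the 4 comparisons with saline and none was called.

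Of the 15 small subunit factors, 8 were called higher after each hormone at 2 hr, 4 after E2 at 24 hr and none after E3 at 24 hr, where 7 were lower at an adjusted p under 0.05. Over all probes 10.6%, 4.68%, 6.93% and 1.85% were called higher in these comparisons, and 18.5% were lower in the last at that adjusted p. With normexp background correction 5 were called after E2 at 2 hr. Ddx21, a nucleolar RNA helicase, read -0.004, 0.043 and 0.11 on the saline arrays, 2.17, 2.50 and 2.45 after E2 and 1.67, 1.36 and 1.40 after E3 at 2 hr, and 0.69, 0.44 and 0.70 after E2 and -0.70, -0.59 and -0.47 after E3 at 24 hr. The 5 groups did not overlap, in the order E2 at 2 hr, E3 at 2 hr, E2 at 24 hr, saline and E3 at 24 hr, with changes of 2.32, 1.43, 0.56 and -0.64 from saline. Bysl, or bystin, needed for maturation of the small subunit, read 0.016, 0.11 and -0.16 on the saline arrays, 1.64, 1.96 and 1.64 after E2 and 1.94, 1.91 and 1.95 after E3 at 2 hr, and 1.61, 1.66 and 1.78 after E2 and 0.034, 0.19 and 0.32 after E3 at 24 hr. It rose in 3 groups, by 1.76 after E2 and 1.95 after E3 at 2 hr and by 1.70 after E2 at 24 hr, all called, and overlapped the saline arrays after E3 at 24 hr (0.19). Rrp12, which takes part in export of the precursor of the small subunit, read -3.42, -3.01 and -3.34 on the saline arrays, -2.04, -1.81 and -1.79 after E2 and -2.02, -1.75 and -1.69 after E3 at 2 hr, and -2.19, -2.06 and -1.98 after E2 and -4.38, -4.23 and -3.96 after E3 at 24 hr. The same 3 groups were called (1.38, 1.44 and 1.18), and after E3 at 24 hr every array was below the saline arrays, at -0.94 (SE 0.14, adjusted p = 0.000574), the lowest value of the 43 and just short of 2-fold. Wdr43, a subunit of the early processome, read 0.66, 0.58 and 0.69 on the saline arrays, 2.09, 2.19 and 2.38 after E2 and 1.94, 1.85 and 1.60 after E3 at 2 hr, and 0.60, 0.73 and 0.75 after E2 and 0.12, 0.047 and -0.077 after E3 at 24 hr. It was called at 2 hr after both hormones (1.57 and 1.16), was at 0.049 after E2 at 24 hr and at -0.61 after E3 at 24 hr (adjusted p = 0.00114), where its arrays were all below saline.

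Tsr1 and Ltv1, which bind the late precursor of the small subunit, were both called at 2 hr, Tsr1 at 1.93 and 1.41 and Ltv1 at 1.18 and 1.00, and uncalled at 24 hr, at 0.39 and 0.54 after E2 and -0.46 and -0.56 after E3. Pno1, the partner of the nuclease Nob1, was called in the first 3 comparisons (1.04, 1.16 and 1.17), while Nob1 stood at 0.47, 0.59 and 0.43 in these, uncalled. Heatr1, part of the complex that links transcription to processing, was called after E2 at 2 hr (1.05) and Rrp9, a protein of the U3 snoRNP, after E3 at 2 hr (1.08). Noc4l was called after E2 at 24 hr (1.07). Imp4, of the U3 snoRNP, was at 0.39 to 0.76 in the first 3 comparisons without a call. Its partner Imp3 read 3.38, 3.21 and 3.25 on the saline arrays, 3.45, 3.44 and 3.45 after E2 and 3.21, 3.04 and 2.98 after E3 at 2 hr, and 3.38, 3.35 and 3.29 after E2 and 3.31, 3.29 and 3.23 after E3 at 24 hr. Its differences from saline lay between -0.20 (E3 at 2 hr, adjusted p = 0.0412) and 0.17 (E2 at 2 hr, adjusted p = 0.0718). Emg1, a methylase of small subunit RNA, read 3.38, 3.18 and 3.18 on the saline arrays, 2.90, 3.17 and 3.01 after E2 and 3.54, 3.51 and 3.43 after E3 at 2 hr, and 3.82, 3.92 and 3.79 after E2 and 3.34, 3.50 and 3.29 after E3 at 24 hr. Its E2 arrays lay below saline at 2 hr (-0.22, adjusted p = 0.0585) and above it at 24 hr (0.60, adjusted p = 0.000149), without a call. Ddx10, a helicase, read 0.33, 0.20 and 0.40 on the saline arrays, 0.74, 0.67 and 0.85 after E2 and 0.44, 0.25 and 0.21 after E3 at 2 hr, and 0.30, 0.27 and 0.37 after E2 and 0.14, 0.04 and 0.063 after E3 at 24 hr. Its E2 2 hr arrays stood above all others (0.45) and its E3 24 hr arrays below (-0.23, adjusted p = 0.0586), without a call.

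Among the large subunit factors, 7 of 13 were called higher at 2 hr after E2 and 5 after E3, then 2 after E2 at 24 hr (Bop1 and Mrto4) and none after E3, beside 10.6%, 4.68%, 6.93% and 1.85% of all probes. With quantile normalization 1 was called after E2 at 24 hr. Rrs1, which brings the 5S ribonucleoprotein into the particle, read 0.73, 0.82 and 0.88 on the saline arrays, 3.08, 3.12 and 3.22 after E2 and 2.50, 2.41 and 2.36 after E3 at 2 hr, and 1.21, 1.18 and 1.47 after E2 and 0.26, 0.18 and 0.16 after E3 at 24 hr. No group overlapped another, and the rise after E2 at 2 hr was 5.03-fold (log2 2.33, SE 0.089, adjusted p = 3.57e-09). On the brightest probes Ddx21 and Polr1b, both at 2.32, were within the error of this value. After E3 at 2 hr Rrs1 was at 1.62 (called), after E2 at 24 hr at 0.48, and after E3 at 24 hr at -0.61. Gnl3, the GTPase nucleostemin, read 0.72, 0.48 and 0.57 on the saline arrays, 2.48, 2.56 and 2.64 after E2 and 2.34, 2.24 and 2.06 after E3 at 2 hr, and 1.06, 0.92 and 1.13 after E2 and -0.081, -0.021 and -0.011 after E3 at 24 hr. It was called at 2 hr (1.98 and 1.63), and at 24 hr its E2 arrays were all above saline and its E3 arrays all below (0.45 and -0.62). Gnl2, a related GTPase, read 2.83, 2.73 and 2.82 on the saline arrays, 3.89, 4.05 and 4.18 after E2 and 3.32, 3.21 and 3.14 after E3 at 2 hr, and 2.58, 2.39 and 2.55 after E2 and 2.55, 2.54 and 2.50 after E3 at 24 hr. Called after E2 at 2 hr (1.25), it was the only gene of the 43 below saline after E2 at 24 hr (-0.28, adjusted p = 0.0144), at the level it also had after E3 (-0.26).

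Bop1, of the complex with Pes1 and Wdr12 that is needed for processing of the large subunit RNA, read 1.00, 0.89 and 0.65 on the saline arrays, 0.76, 1.29 and 1.12 after E2 and 1.66, 1.62 and 1.69 after E3 at 2 hr, and 2.11, 2.19 and 2.23 after E2 and 0.75, 0.91 and 0.99 after E3 at 24 hr. It went from 0.21 after E2 at 2 hr to 1.33 at 24 hr, where it was called, and went from 0.81 to 0.038 after E3. On the brightest probes Pes1 was at 0.95 after E2 at 2 hr and 0.18 at 24 hr and Wdr12 at 0.086 and 0.75, but other probes gave -0.10 for Pes1 and 1.26 and 0.28 for Wdr12 at 2 hr, so their order is not settled. Ebna1bp2, an early large subunit factor, read 3.75, 3.54 and 3.50 on the saline arrays, 3.96, 4.07 and 4.03 after E2 and 4.16, 4.07 and 3.98 after E3 at 2 hr, and 4.29, 4.24 and 4.27 after E2 and 3.64, 3.76 and 3.67 after E3 at 24 hr. Its differences were 0.42, 0.47 and 0.67 in the first 3 comparisons, each under 2-fold, and 0.095 after E3 at 24 hr. Mrto4, which holds the place of a stalk protein on the precursor, was called in the first 3 comparisons (1.49, 1.14 and 1.10). Nol1, an RNA methylase, and Nip7 were called at 2 hr with both hormones (Nol1 1.48 and 1.32, Nip7 1.40 and 1.20), and Ftsj3, also a methylase, with E2 alone (1.23, against 0.93 after E3, a difference that the direct test puts at -0.30 with adjusted p = 0.0231). The helicase Ddx18 and Noc2l were not called in any comparison with saline, with differences of -0.22 to 0.63 and -0.046 to 0.87.

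Set directly against each other at the same dose and time, E3 and E2 gave 1 called gene at 2 hr and 12 at 24 hr. At 2 hr, 1 of 43 genes was called, lower after E3, where 7.37% of all tested probes were called and 5.83% called lower. That gene was Polr1b, with a difference of -1.98 on the brighter of its 2 probes (95% interval -2.54 to -1.41, adjusted p = 0.000102). Of 20 genes with several tested probes, 10 had probes of opposite sign in this comparison, and the call differed between probes for 1. At an adjusted p under 0.05, 6 were higher after E3, led by Npm3 at 0.78 and Bop1 at 0.60, and 14 lower, among them Nol5a at -0.91, Ddx21 at -0.89, Gnl2 at -0.82 and Rrs1 at -0.71. Over all tested probes, 17% were higher and 26.3% lower by that rule. The arrays did not overlap for 7 genes that were higher and 16 that were lower (20.9% and 30% of probes). For Myc the difference at 2 hr was 0.14 with an interval of -0.15 to 0.43. Bysl (0.19, interval -0.05 to 0.42), Rrp12 (0.059, interval -0.25 to 0.36) and Nolc1 (0.13, interval -0.15 to 0.41) were not called either. The E2 arrays of this comparison are the ones of another strain, scanner and scan day, which cannot be told apart from the hormone.

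At 24 hr, 42 of 43 genes were lower after E3 than after E2, 38 of them without overlap between the arrays, where 21.9% of all tested probes were lower and 29.3% higher without overlap. 12 were called lower and none higher, where 2.07% of probes were called lower, 2.77% higher and 4.85% either way. The 12 were Rrp12 (-2.12, 95% interval -2.42 to -1.81), Bysl (-1.51), Nolc1 (-1.41), Bop1 (-1.29), Ddx21 (-1.20), Polr1e (-1.20), Mrto4 (-1.19), Pno1 (-1.17), Heatr1 (-1.14), Ltv1 (-1.10), Rrs1 (-1.09) and Gnl3 (-1.08). Myc stood at -0.84 in this comparison (interval -1.13 to -0.56, adjusted p = 0.000478). By the adjusted p alone 36 genes were lower and none higher (15.7% and 20.8% of probes), and the median difference was -0.84 against 0.063 over all probes. The genes that missed an adjusted p of 0.05 were Gnl2 (0.022, interval -0.17 to 0.21), Polr1c (-0.035, -0.22 to 0.15), Npm1 (-0.056, -0.33 to 0.22) and Imp3 (-0.063, -0.23 to 0.10), and Rrn3 (-0.22), Ddx10 (-0.23) and Polr1b (-0.56, -1.12 to 0.0027). These 6 arrays shared strain, scanner and scan day but not slides (slide 5 for E3, slides 6 and 7 for E2), so slide and hormone cannot be told apart here. The 8 epithelium markers summed to 195 to 204 times the 75th percentile on the E2 arrays at 24 hr, 134 to 143 on the E3 arrays and 81.7 to 111 on the saline arrays, all 8 of them well above background on each. Of these 8, 4 were called higher and 1 lower after E2 at 24 hr against saline, and for E3 against E2 1 was called lower, 5 more were below 0 and 2 were above 0. At 24 hr stroma markers summed to 217 to 235 after E2 and 236 to 261 after E3 (155 to 196 on saline), smooth muscle markers to 353 to 383 and 361 to 445 (257 to 296), and endothelium markers to 3.92 to 4.47 and 4.95 to 5.22 (6.72 to 6.995). The part of these cell types in the difference was not tested.

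**Figure D3:**
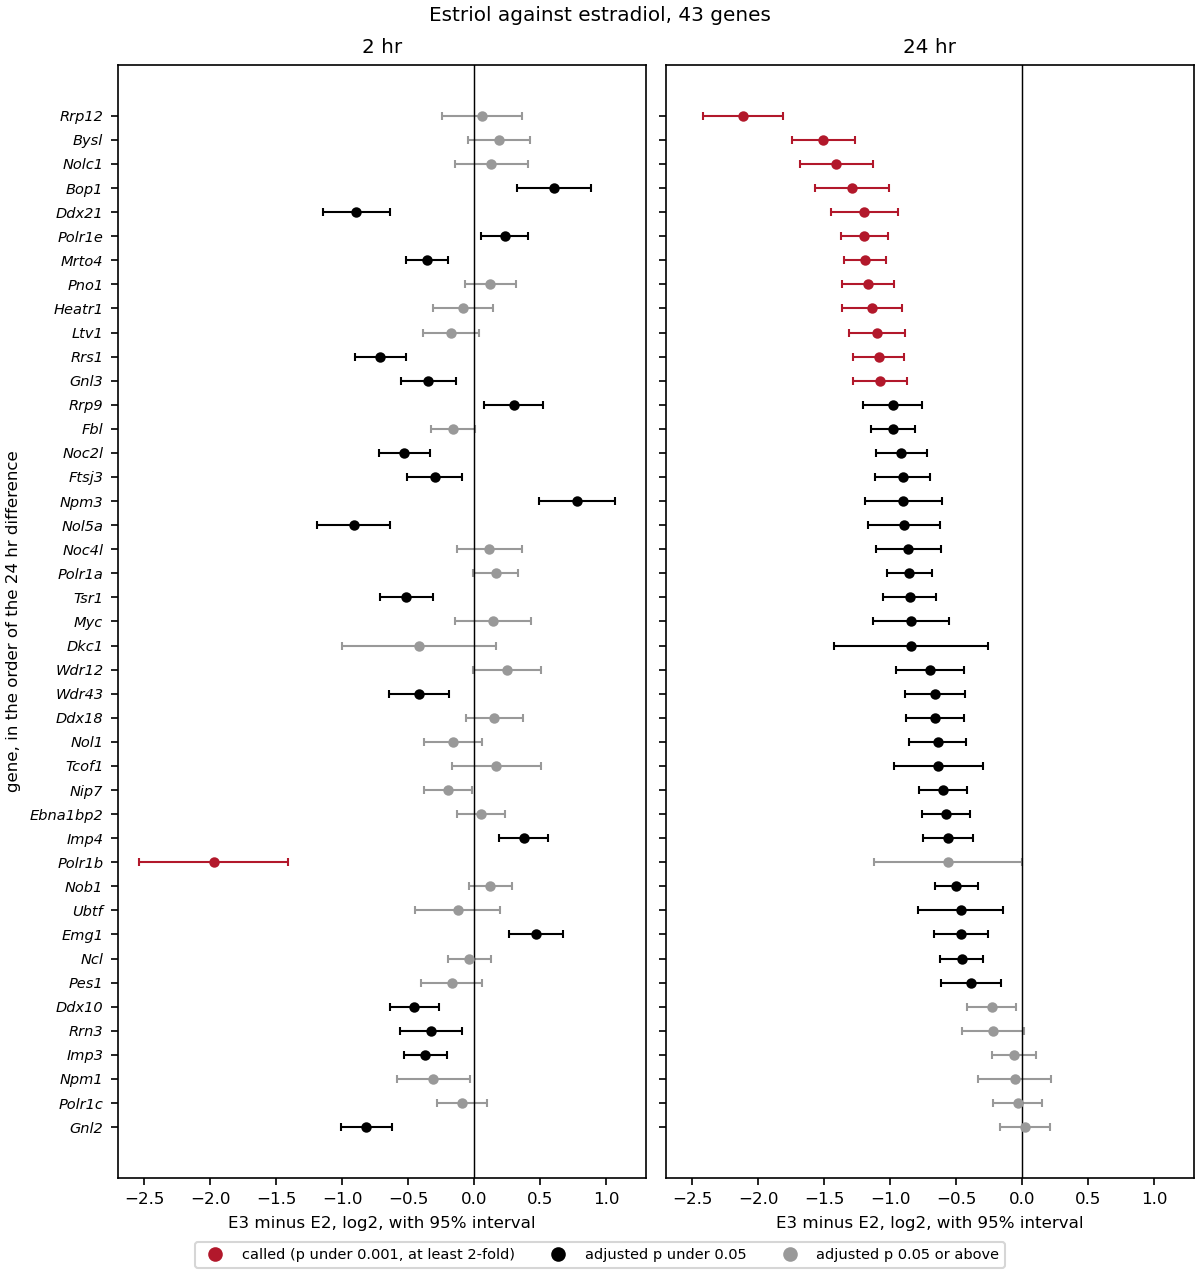
Difference in log2 level of E3 minus E2 (x axis, points with 95% intervals) for the 43 genes (rows, in the order of the difference at 24 hr) at 2 hr (left) and 24 hr (right), 3 arrays a group. At 2 hr the genes lie on both sides of 0 and Polr1b is called lower; at 24 hr 42 of 43 are below 0 and 12 are called.

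From 2 hr to 24 hr, 19 of 43 genes were called lower after E3 and none higher, where 6.47% of all tested probes were called lower, 9.65% higher and 16.1% either way. Rrp12 fell by 2.37, Nolc1 by 2.28, Gnl3 by 2.25 and Rrs1 by 2.23 on the log2 scale, and Myc itself fell by 1.25 (SE 0.13, adjusted p = 7.22e-06). After E2, 9 were called lower and 2 higher, where 17.2% of probes were called lower, 13.9% higher and 31.1% either way. The share of genes called lower was thus near the background. The 9 were Rrs1 (-1.85), Ddx21 (-1.76), Tsr1 (-1.54), Gnl2 (-1.53), Gnl3 (-1.52), Wdr43 (-1.52), Polr1b (-1.49), Nol5a (-1.35) and Nol1 (-1.09), and the 2 called higher were Npm3 (1.44) and Bop1 (1.12). At an adjusted p under 0.05, 13 were higher and 19 lower at 24 hr than at 2 hr after E2 (34.4% and 35.5% of probes), against 3 higher and 33 lower after E3 (33% and 22.3%). Without overlap these were 14 and 20 after E2 (36.2% and 36.7%) and 3 and 35 after E3 (37% and 25%). Myc was at -0.27 after E2 (interval -0.56 to 0.016). The change over time differed between the hormones for 10 genes, all with a lower value for E3, where 4.39% of probes were called lower in this interaction, 11.1% higher and 15.5% either way. These were Rrp12, Bop1, Bysl, Npm3, Nolc1, Polr1e, Pno1, Rrp9, Heatr1 and Polr1a. At an adjusted p under 0.05, 29 of the 43 were lower and 3 higher (17.6% and 28.5% of probes).

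Other genes of the pathway, from lists that held none of the 43, were read in the same way. Of 84 other ribosome biogenesis factors, 20 were called higher after E2 at 2 hr, 9 after E3 at 2 hr, 7 after E2 at 24 hr and none after E3 at 24 hr, with 0, 0, 1 and 2 lower, where 10.6%, 4.68%, 6.93% and 1.85% of all probes were called higher. The 7 of 84 after E2 at 24 hr were near that background. Their medians were 0.64, 0.51, 0.26 and -0.14. At 2 hr the processome proteins Mphosph10 (2.22 after E2, 1.54 after E3) and Utp6 (2.18 and 1.83) were among the highest, and after E2 at 24 hr the H/ACA proteins Nola2 (1.45) and Nola1 (1.15) were, both called lower after E3 than after E2 (-1.43 and -1.08). RNA polymerase III, which makes 5S ribosomal RNA and tRNA, gave medians of -0.022, -0.011, 0.052 and -0.016 over 22 subunits and factors, with 3, 1, 1 and 0 called higher, all of them counts near the background, and Polr3d first among them at 2 hr (1.49 after E2, 1.69 after E3). The sign of the polymerase III median after E2 at 2 hr turned under other scalings (-0.074 to 0.070). Of 14 further subunits and factors of polymerase I, 2, 0, 1 and 0 were called higher, also near the background.

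No ribosomal protein gene was called in a comparison with saline, but under another scaling 1 was called lower after E2 at 2 hr. Of 56 genes of cytosolic ribosomal proteins, limma called none in any of the 4 comparisons with saline, with medians of 0.23, -0.10, 0.06 and 0.08. At an unadjusted p under 0.05, 26 were higher and 9 lower after E2 at 2 hr, 1 and 5 after E3 at 2 hr, 10 and 0 after E2 at 24 hr, and 8 and 0 after E3 at 24 hr. Over all probes the shares higher and lower at that p were 30.7% and 34.7%, 20.9% and 34.2%, 29.1% and 36%, and 20.3% and 24.1%. The widest values were 0.92 for Rpl14 after E2 at 24 hr and -0.97 for Rplp0 after E2 at 2 hr. The sign of the median after E2 at 2 hr and at either 24 hr group turned under other scalings of the arrays, so no direction is given for this family.

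Of 21 targets of Myc outside the ribosome, 4 were called higher after E2 at 2 hr, 2 after E3 at 2 hr, 11 after E2 at 24 hr and none after E3 at 24 hr, where 1 (the cyclin gene Ccnd2, -1.0) was called lower. Over all probes 10.6%, 4.68%, 6.93% and 1.85% were called higher, and with quantile normalization the counts were 2 after E2 at 2 hr and 6 after E2 at 24 hr. After E2 at 24 hr the transferrin receptor Tfrc (2.90), the nucleoside diphosphate kinase Nme1 (1.82) and the spermidine synthase Srm (1.78) were highest, and the same 3 were the lowest for E3 against E2 (-2.37, -1.84 and -2.16, all called). Another list held 11 genes of the Myc network, not all of them partners of Myc. Of these, 2 were called higher and 3 lower after E2 at 2 hr (10.6% and 10.7% of all probes), and 0 and 1 after E3 (4.68% and 9.11%). At 24 hr it was 1 and 3 after E2 (6.93% and 11.1%) and 1 and 0 after E3 (1.85% and 1.96%). Over other scalings 1 to 2 were called higher and 2 to 3 lower after E2 at 2 hr. The counts called lower were 1 to 2 after E3 at 2 hr and 2 to 3 after E2 at 24 hr. The antagonist Mxi1 was called lower after E2 at both times and after E3 at 2 hr (-1.14, -1.17 and -1.14). After E2 at 2 hr Mycn (1.22) and Mycl (1.02) were called higher and Mxd4 (-1.58) lower. Mxd3 was called lower after E2 at 2 hr (-1.74) and higher at 24 hr after both E2 (1.86) and E3 (1.88). It was the single gene of this list called after E3 at 24 hr. Mga (-1.04) and Mxd1 (-1.01) were called lower after E2 at 24 hr.

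**Figure D4:**
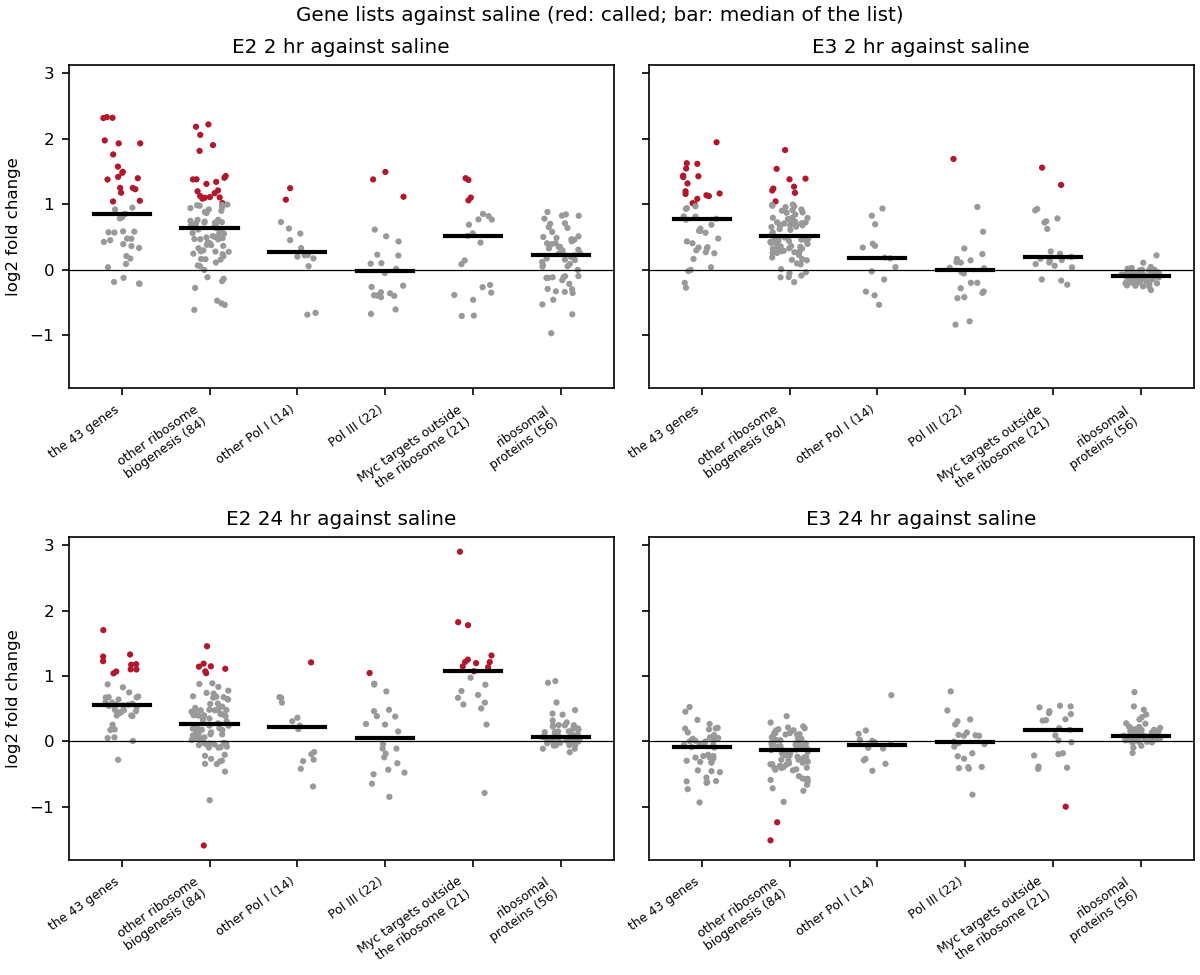
Log2 fold change against saline (y axis) of each gene (points, red where called) of the 43 and of 5 other lists (x axis, number of genes in brackets, Pol for RNA polymerase) in the 4 comparisons; black bars are list medians. The medians of the 43 are 0.85, 0.78, 0.56 and -0.09, and those of the ribosomal proteins lie between -0.10 and 0.23.

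Probes of 1 gene did not always give the same call. Of 20 genes with several tested probes, the call differed between probes for 4 after E2 at 2 hr, 3 after E3 at 2 hr, 4 after E2 at 24 hr and none after E3 at 24 hr. For E3 against E2 it differed for 1 at 2 hr and 2 at 24 hr, from 2 hr to 24 hr for 9 after E2 and 2 after E3, and for 8 in the interaction. The log2 fold changes of a gene's probes lay more than 1 apart for 6 of the 20 after E2 at 2 hr, none after E3 at 2 hr, 4 after E2 and 1 after E3 at 24 hr, 5 and 1 for E3 against E2 at 2 hr and 24 hr, 10 and 0 over time after E2 and E3, and 7 in the interaction. Probes of opposite sign occurred in 4, 2, 7 and 8 of the 20 against saline, in 10 and 2 for E3 against E2, in 7 and 1 over time and in 6 in the interaction. Of the calls over time after E2, Ddx21 (-1.76) was not called on its other 2 probes (-0.92 and -0.19). Examples after E2 at 2 hr were Polr1a (-0.13 on the brightest probe, 1.22 on the other), Pes1 (0.95 and -0.10), Wdr12 (0.086 on the brightest, up to 1.26), Dkc1 (0.58 and -0.72) and Bysl (1.76 on the brightest, 1.37 and 3.05). For E3 against E2 at 24 hr, Rrn3 and Polr1b had probes of opposite sign.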

How the data were processed

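Uterine RNA of 15 samples had been labelled with Cy3 and hybridised singly to Agilent Whole Mouse Genome arrays. The authors scanned the arrays and deposited, per the file headers, the processed signal intensity of each spot from Agilent Feature Extraction 9.5.3.1, background-subtracted within the array on a linear scale, and a table of the same intensities for all samples, from which the scanner values did not differ (largest relative difference 0). Signal over background and 3 arrays a group limit the precision.

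Control spots were left out (43379 of 45018 spots remained), 1893 outlier spots were set aside, and each signal was divided by its array's 75th percentile, put on the log2 scale and averaged per probe. Probes well above background on at least 2 of 3 arrays of a group were kept, and 34766 of 41174 probes were tested in all comparisons. Group means were fitted over all 5 groups with limma 3.58.1 in R 4.3.3 (10 residual degrees of freedom), with Benjamini-Hochberg adjustment over all tested probes. Fold changes and intervals come from this fit. The fit was tested on simulated data with known changes.

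A gene stood for its brightest probe, and names follow the array's design, with 48 of 332 listed genes matched through older RefSeq symbols and 2 not found. Values on every array were given for Myc, Npm3, the brightest gene of each role and the 3 genes with the largest and smallest fold change against saline, and other list genes were named from the 3 highest and 3 lowest. The genes and lists were chosen with earlier results of these data known. Alternatives were normexp background correction (offset 50), quantile or no scaling, other filters and call rules, slide as a random block, the replicate number as a block, each array left out, other probes of a gene, and, added after seeing the data, the fit without both pancreas arrays. Promoter letters were searched with Python 3.11.15. No mm7 genome was used here.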

Additional observations from a re-analysis of the deposited data

Results flagged for a closer look

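For 10 of the 43 genes the change from 2 hr to 24 hr differed between the hormones by the test of that difference itself (limma, 3 arrays a group), all 10 of them lower for E3, where 4.39% of all probes were called lower, 11.1% higher and 15.5% either way. The difference, E3 minus E2 on the log2 scale, was -2.17 for Rrp12, -1.89 for Bop1, -1.69 for Bysl, -1.68 for Npm3, -1.54 for Nolc1, -1.42 for Polr1e, -1.29 for Pno1, -1.28 for Rrp9, -1.06 for Heatr1 and -1.02 for Polr1a. For Rrp12 the adjusted p was 1.17e-05. Polr1b, at 1.42 and not called here, was called higher for E3 under 5 alternatives. The E2 2 hr arrays, of another strain, scanner and scan day, enter each value and cannot be told apart from the hormone. Of the other 2 probes of Bysl, 1 was called at -2.08 and 1 was not (-0.28, adjusted p = 0.15), and the other probes of Polr1a (0.30, adjusted p = 0.163) and Nolc1 (-0.30) and 1 of the other 2 of Heatr1 (-0.51) were not called. Over the 20 genes with several tested probes, the call on this difference was not the same on all probes for 8.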

How the results depend on the processing

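Single other probes of a gene aside, no fold change of the 43 genes that was called reversed under an alternative. Of 8256 comparisons of a single gene's value with an alternative, 8020 stayed called or uncalled, 50 lost the call, 185 gained it and 1 without a test moved. Single other probes are not in this tally, and on its other probe the called difference over time of Polr1a had the opposite sign. Among the uncalled values of the same tally the sign turned in 131 cases, in 60 pairs of gene and comparison, for values of up to 0.66, and these 60 have no settled direction. Genes whose single probes had opposite signs, such as Pes1 after E2 at 2 hr, add to these. Without scaling between arrays, 1 gene was called after E3 at 24 hr and 2 for E3 against E2 at 2 hr. With p under 0.001 and no minimum fold, the counts were 33 for E2 and 30 for E3 at 2 hr, 30 for E2 and 11 for E3 at 24 hr (1 higher, 10 lower), 14 and 32 for E3 against E2 at 2 hr and 24 hr, 26 and 30 for 24 hr against 2 hr of E2 and E3, and 24 for the difference of these. Over all probes this rule called 20.1% higher and 21.1% lower, 11.5% and 18.7%, 17% and 22.3%, 7.51% and 8.47%, 7.51% and 15.2%, 9.95% and 8.74%, 24.3% and 26.8%, 20.9% and 14.2%, and 16.2% and 8.98%, in that order. Leaving out 1 array at a time gave 18 to 19 and 14 to 18 for E2 and E3 at 2 hr, 9 to 11 and 0 to 1 at 24 hr, 1 to 2 and 12 to 14 for E3 against E2, 10 to 11 and 19 to 20 over time, and 9 to 13 for the difference. The single call after E3 at 24 hr came without saline replicate 1 or without E3 replicate 3, and the count of 2 came without E2 2 hr replicate 1. Same-numbered arrays did not deviate together (30 pairs, median r 0.038, from -0.46 to 0.54), so the numbers do not pair samples, and with the replicate block the counts were 19, 16, 10, 0, 1, 12, 11, 19 and 10 in the order above, as without it. The normexp correction called 16 genes for E2 at 2 hr and 10 for E3 against E2 at 24 hr, and it moved the median of all probes to 0.32 for E3 at 24 hr and 0.44 for E3 against E2 at 24 hr. Over all probes it called 1905 higher and 1880 lower after E2 at 2 hr (3675 and 3709 without it) and 503 and 60 after E3 at 24 hr (643 and 682). In the difference over time, 1 gene (Polr1b, but Gnl2 with no minimum fold) was called higher beside 11 lower with normexp, 9 without scaling, 10 with adjusted p and 2-fold, 8 with the mean over all probes, 11 without E3 24 hr replicate 1 and 23 with no minimum fold. On the slide shared by E3 2 hr and saline replicate 3, fold changes were taken without a test, since that slide held no other saline array.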
